A study of Homo sapiens with 4 samples.

Results

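The genes described here are 10 genes of the smooth muscle contractile apparatus, out of 60234 genes in the deposited count table: MYH11, TAGLN, CNN1, SMTN, LMOD1, MYLK, MYOCD, CALD1, DES and SYNPO2. They were chosen by symbol, with their measured levels in these libraries already known, so their levels and differences are given as a description. All 10 matched a row by Ensembl identifier, and each had over 1 CPM (the count scaled to a common library size) in every library. The RNA came from the NKX2.5 eGFP/w line, an established line of human embryonic stem cells (hESC) with GFP inserted at the NKX2-5 locus as a marker of the cardiac lineage. The cells were differentiated as embryoid bodies towards heart muscle. One set of cultures received retinoic acid (RA) at 1 µM from day 4 to day 7, and the control (CTR) received the solvent DMSO over the same days. At day 31 by the deposited description the cells of each were sorted into a GFP-positive and a GFP-negative fraction, giving 4 libraries with 1 library per condition. The written procedures place the sort slightly earlier. RA and CTR cells grew in separate cultures, so that the treatment and the culture cannot be told apart, and a single reporter line was used. Since each condition has 1 library, none of the differences could be checked against replicates, and no p-value is given.

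Smooth muscle contracts when calcium activates myosin light chain kinase, which phosphorylates the light chain of myosin and lets the myosin heavy chain pull on actin filaments. Caldesmon, calponin, transgelin and leiomodin sit on the actin filament, desmin and synaptopodin 2 tie the filaments to dense bodies and Z-discs, and myocardin with its partner SRF switches many of these genes on. SRF binds a short DNA element called the CArG box. Several of the 10 genes are also used outside smooth muscle. DES, MYOCD and CNN1 are expressed in developing or mature heart muscle, and CALD1 and TAGLN in fibroblasts and other mesenchymal cells.

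Promoter sequences were taken from a RefSeq table of GRCh38.p14, each from 250 bases before to 50 bases after a gene's start, and were placed in GRCh37 by exact match. The table held 14 windows for 6 of the 10 genes (LMOD1, MYLK, SYNPO2, CALD1, CNN1 and SMTN), and MYH11, TAGLN, MYOCD and DES had no entry in it. The CArG box was searched on both strands as its consensus, 2 C, then 6 bases that are A or T, then 2 G. One box stood in the MYLK window, 94 bases before the start, and one in 1 of 4 SMTN windows, 44 bases before the start, so 2 of 14 windows held one, compared with 1.29% of the 35116 windows of the whole table. ACTG2, which encodes the gamma actin of enteric smooth muscle and is described below, held 2 boxes in its window, 110 and 73 bases before the start. These are all the sites found in the windows of the 10 genes and of the smooth muscle actin genes ACTG2 and ACTA2. MYLK and ACTG2 were over 2-fold higher with RA in GFP-positive cells and SMTN was level, and SYNPO2 and ACTA2, also over 2-fold higher, held no CArG box in their 3 and 2 windows. No relation of the boxes to the RA difference was tested. Capitals mark the CArG box within 30 bases of GRCh37, written 5′ to 3′ on the strand of the gene.
MYLK, chr3:123339470-123339499, minus strand: ataaaccatcCCTTTTATGGgagttgaagc
SMTN, chr22:31480928-31480957, plus strand: cggggccgggCCATATAAGGaaaagctagg
ACTG2, chr2:74120015-74120044, plus strand: gaaaaaaccaCCTTATATGGtaatattgct
ACTG2, chr2:74120052-74120081, plus strand: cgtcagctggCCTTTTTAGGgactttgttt

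The MYLK start of the table lies inside the gene, towards its 3′ end, the part from which the short smooth muscle protein telokin is known to be made. The windows of CNN1, LMOD1, CALD1 and SYNPO2 held no CArG box. The stretches of CNN1 and LMOD1 outside annotated exons are given as examples of windows without one and have no capitals.
CNN1, chr19:11649416-11649581, plus strand: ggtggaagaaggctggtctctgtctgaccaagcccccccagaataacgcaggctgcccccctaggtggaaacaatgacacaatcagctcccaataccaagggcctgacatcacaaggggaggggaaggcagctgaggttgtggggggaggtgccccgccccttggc
LMOD1, chr1:201915677-201915926, minus strand: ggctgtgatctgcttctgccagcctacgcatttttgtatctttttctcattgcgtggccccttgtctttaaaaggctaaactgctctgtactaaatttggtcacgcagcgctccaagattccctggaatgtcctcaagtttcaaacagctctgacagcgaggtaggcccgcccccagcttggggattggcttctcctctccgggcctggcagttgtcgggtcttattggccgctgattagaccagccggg

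The E-box CANNTG, a common site of basic helix-loop-helix factors, was found in 9 of the 14 windows, compared with 68.7% of all windows. A match describes the letters of these windows, and a window with no match says nothing about SRF elsewhere in the gene.

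The libraries held 28125727 reads (RA GFP-positive), 28643091 (CTR GFP-positive), 26222787 (RA GFP-negative) and 4371101 (CTR GFP-negative). The last was the shallowest, and 3 reads corresponded to 0.639 CPM in it, compared with 0.105 to 0.117 CPM in the others. As a check of the sort, NKX2-5 had 463 CPM in RA and 593 CPM in CTR GFP-positive cells, and 9.74 and 14.5 CPM in the respective GFP-negative cells. CPM were computed with TMM factors, and each carries an exact Poisson 95% interval. The ratio of 2 libraries carries a Clopper-Pearson 95% interval. Both intervals cover counting error only and leave out any variation between cultures. Amplified reads are not independent molecules, so the intervals may be too narrow even for counting error. Differences are given in log2(CPM + 1), which understates the change of low genes, and a gene is called higher or lower here at a difference of at least 1, that is 2-fold.

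In GFP-positive cells, 4 of the 10 genes were at least 2-fold higher with RA: MYH11, MYLK, SYNPO2 and TAGLN. None was at least 2-fold lower. A gene was tested where 1 of the compared libraries reached 1 CPM. Over the 17465 genes tested, 5.09% were called higher and 2.12% lower. The median difference of the 10 genes was 0.51, compared with 0.01 over all genes tested, and the single differences ranged from -0.29 to 4.73. Since the genes were chosen with these levels known, nothing is read from the count against that background. In sorted bulk RNA, more cells that express a gene and more RNA per cell cannot be told apart.

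MYH11 (ENSG00000133392; chromosome 16 of GRCh37, 15796992 to 15950885, minus strand, protein coding) encodes the smooth muscle myosin heavy chain, the motor of the contractile apparatus and the marker that is most restricted to smooth muscle. It had 3069 reads in the RA GFP-positive library, 96 in the CTR GFP-positive, 728 in the RA GFP-negative and 109 in the CTR GFP-negative library. The respective levels were 115 CPM (111 to 119), 3.35 CPM (2.71 to 4.09), 28.4 CPM (26.3 to 30.5) and 23.2 CPM (19.1 to 28.0). RA GFP-positive cells thus had the highest level and CTR GFP-positive cells the lowest, with both GFP-negative libraries in between and their intervals overlapping. The ratio of RA to CTR was 34.3 (28.0 to 42.4) in GFP-positive cells, a difference of 4.73 that ranked 1 of 17465 among the rises. In GFP-negative cells the ratio was 1.22 (0.998 to 1.51), an interval that held 1. Of the annotated exon bases of MYH11, 7.32% are shared with genes on the opposite strand, mainly NDE1, and counting without strand can leave out or misplace reads there.

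MYLK (ENSG00000065534; chromosome 3, 123328896 to 123603179, minus strand, protein coding) encodes the myosin light chain kinase of smooth muscle and of many non-muscle cells. Its levels were 271 CPM (265 to 277) in RA GFP-positive cells, 18.4 CPM (16.9 to 20.1) in CTR GFP-positive cells, 125 CPM (121 to 129) in RA GFP-negative cells and 68.8 CPM (61.5 to 76.7) in CTR GFP-negative cells. These rested on 7252, 528, 3208 and 323 reads. The order of the libraries was the same as for MYH11, except that the GFP-negative libraries also stood apart. RA was 14.7-fold above CTR in GFP-positive cells (13.5 to 16.1), a difference of 3.81 that ranked 13 among the rises. In GFP-negative cells the ratio was 1.82 (1.62 to 2.04), a difference of 0.85 that stayed under 2-fold.

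SYNPO2 (ENSG00000172403; chromosome 4, 119771843 to 119982402, plus strand, protein coding) encodes synaptopodin 2, also called myopodin, an actin-bundling protein of Z-discs and dense bodies. Its levels were 106 CPM (102 to 110) in RA GFP-positive cells, 26.1 CPM (24.3 to 28.1) in CTR GFP-positive cells, 39.5 CPM (37.1 to 42.0) in RA GFP-negative cells and 25.1 CPM (20.8 to 30.1) in CTR GFP-negative cells. Only the RA GFP-positive library stood far above the others, and the CTR libraries overlapped. The ratio of RA to CTR was 4.04 (3.73 to 4.39) in GFP-positive cells, a difference of 1.97, and 1.57 (1.30 to 1.92) in GFP-negative cells, a difference of 0.63.

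TAGLN (ENSG00000149591; chromosome 11, 117070086 to 117078180, plus strand, protein coding) encodes transgelin, or SM22, an actin-binding protein that appears early in smooth muscle and is also made by stressed fibroblasts. Its levels were 171 CPM (166 to 176) in RA GFP-positive cells, 70.9 CPM (67.9 to 74.1) in CTR GFP-positive cells, 744 CPM (733 to 754) in RA GFP-negative cells and 338 CPM (321 to 355) in CTR GFP-negative cells. Both GFP-negative libraries were above both GFP-positive ones, and within each fraction RA was above CTR. RA was 2.41-fold above CTR in GFP-positive cells (2.29 to 2.54; difference 1.26) and 2.20-fold above it in GFP-negative cells (2.09 to 2.32; difference 1.14). TAGLN shares 34.1% of its annotated exon bases with PCSK7 on the opposite strand, the largest overlap among the 10 genes, and its level may therefore be undercounted in all 4 libraries.

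**Figure D1:**
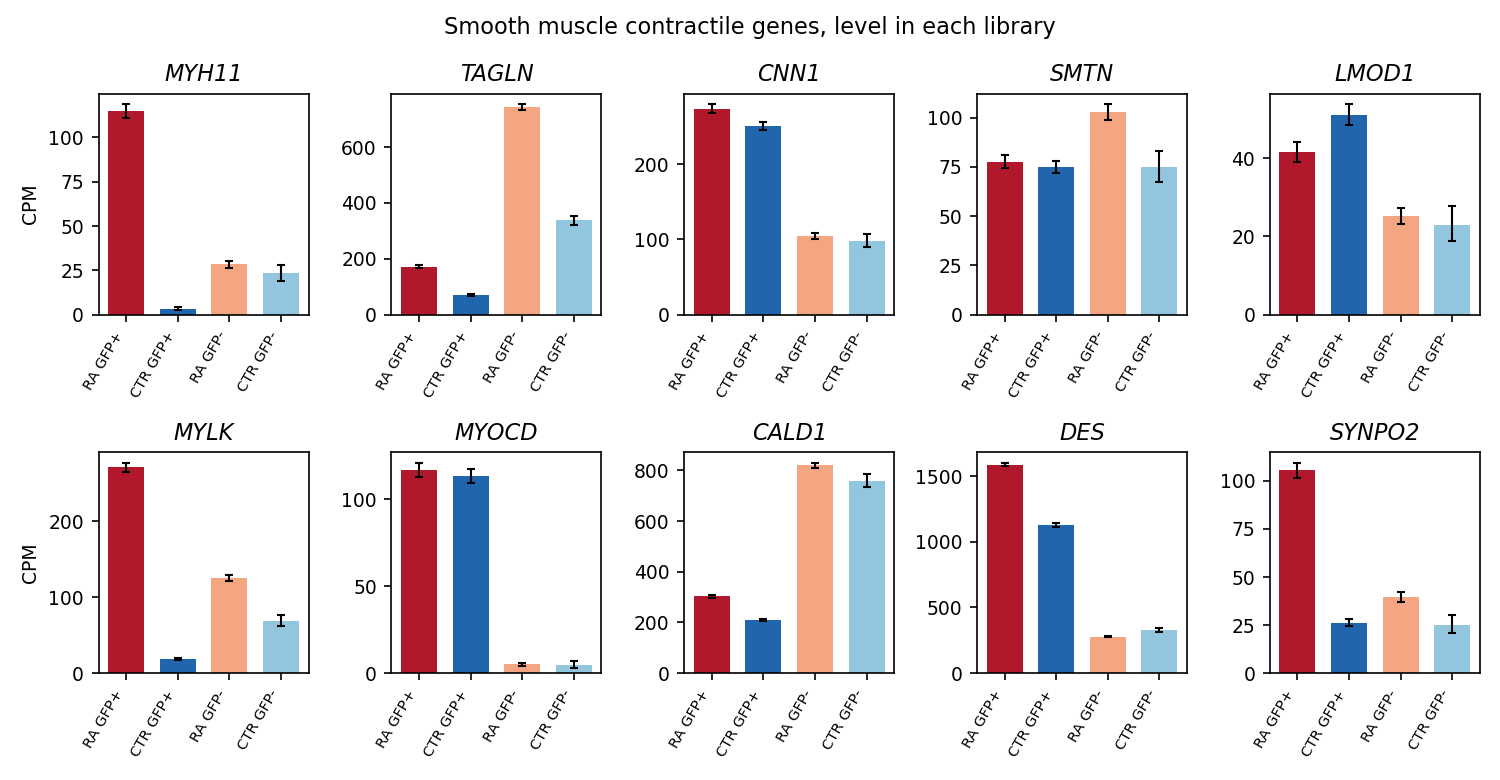
Level of each of the 10 genes in CPM (vertical axes, linear from 0, a separate scale for each gene) in the 4 libraries, with 1 library per bar and exact Poisson 95% intervals as error bars. MYH11, MYLK and SYNPO2 were highest in RA GFP-positive cells, TAGLN and CALD1 in the GFP-negative libraries, and MYOCD, DES and CNN1 in both GFP-positive libraries.

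The remaining actin-filament proteins differed by under 2-fold between RA and CTR in both fractions. CALD1 (ENSG00000122786; chromosome 7, 134429003 to 134655480, plus strand) encodes caldesmon, which blocks the myosin-binding sites of actin at rest. Its levels were 303 CPM in RA and 209 CPM in CTR GFP-positive cells, and 820 CPM in RA and 759 CPM in CTR GFP-negative cells. As with TAGLN, the GFP-negative libraries were the higher ones. The ratio of RA to CTR was 1.45 (1.402 to 1.499) in GFP-positive cells and 1.08 (1.04 to 1.12) in GFP-negative cells, where the sign of the log2 difference turned from 0.11 to -0.02 with scaling by library size.

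CNN1 (ENSG00000130176; chromosome 19, 11649582 to 11661138, plus strand) encodes calponin 1, an inhibitor of the myosin ATPase. It had 274 CPM in RA and 251 CPM in CTR GFP-positive cells, and 104 and 98.2 CPM in the respective GFP-negative cells. The GFP-positive libraries were the higher ones and RA and CTR were close: the ratio was 1.09 (1.06 to 1.13) in GFP-positive cells and 1.06 (0.960 to 1.17) in GFP-negative cells. LMOD1 (ENSG00000163431; chromosome 1, 201865584 to 201915676, minus strand) encodes leiomodin 1, which starts new actin filaments. Its levels were 41.6, 51.2, 25.2 and 23.0 CPM in RA GFP-positive, CTR GFP-positive, RA GFP-negative and CTR GFP-negative cells. Its ratio of RA to CTR lay below 1 in GFP-positive cells, at 0.812 (0.751 to 0.879), as for none of the other genes with TMM scaling, although the differences of MYOCD and SMTN near 0 also turned below 0 with scaling by library size. In GFP-negative cells its ratio of 1.09 had an interval that held 1 (0.892 to 1.35). An unnamed gene on the opposite strand shares 13.6% of the LMOD1 exon bases.

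SMTN (ENSG00000183963; chromosome 22, 31460091 to 31500743, plus strand) encodes smoothelin, a cytoskeletal protein of contractile smooth muscle. It was the most even of the 10 genes across libraries, with 77.6 CPM in RA and 74.9 CPM in CTR GFP-positive cells, and 103 and 74.96 CPM in the respective GFP-negative cells. The intervals of RA and CTR overlapped in GFP-positive cells, with a ratio of 1.04 (0.975 to 1.10). In GFP-negative cells the ratio was 1.37 (1.23 to 1.54).

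DES (ENSG00000175084; chromosome 2, 220283099 to 220291457, plus strand) encodes desmin, the intermediate filament of all muscle. Its levels were 1588 CPM in RA and 1127 CPM in CTR GFP-positive cells, and 278 and 328 CPM in the respective GFP-negative cells. Both GFP-positive libraries were far above both GFP-negative ones. RA was above CTR in GFP-positive cells, with a ratio of 1.41 (1.39 to 1.43), and below it in GFP-negative cells, with a ratio of 0.847 (0.802 to 0.896). The difference between these ratios was not tested.

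MYOCD (ENSG00000141052; chromosome 17, 12569207 to 12672266, plus strand) encodes myocardin, a coactivator of SRF in both heart and smooth muscle. It had 3127 reads in RA and 3243 in CTR GFP-positive cells, and only 128 and 22 reads in the respective GFP-negative cells. The levels were 117, 113, 4.99 and 4.69 CPM in the same order. MYOCD thus followed the sorted fraction and not the treatment: the ratio of RA to CTR was 1.03 (0.983 to 1.09) in GFP-positive cells and 1.06 (0.674 to 1.76) in GFP-negative cells, and both intervals held 1. With 22 reads in the CTR library, the depth leaves the wide interval of the GFP-negative ratio.

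**Figure D2:**
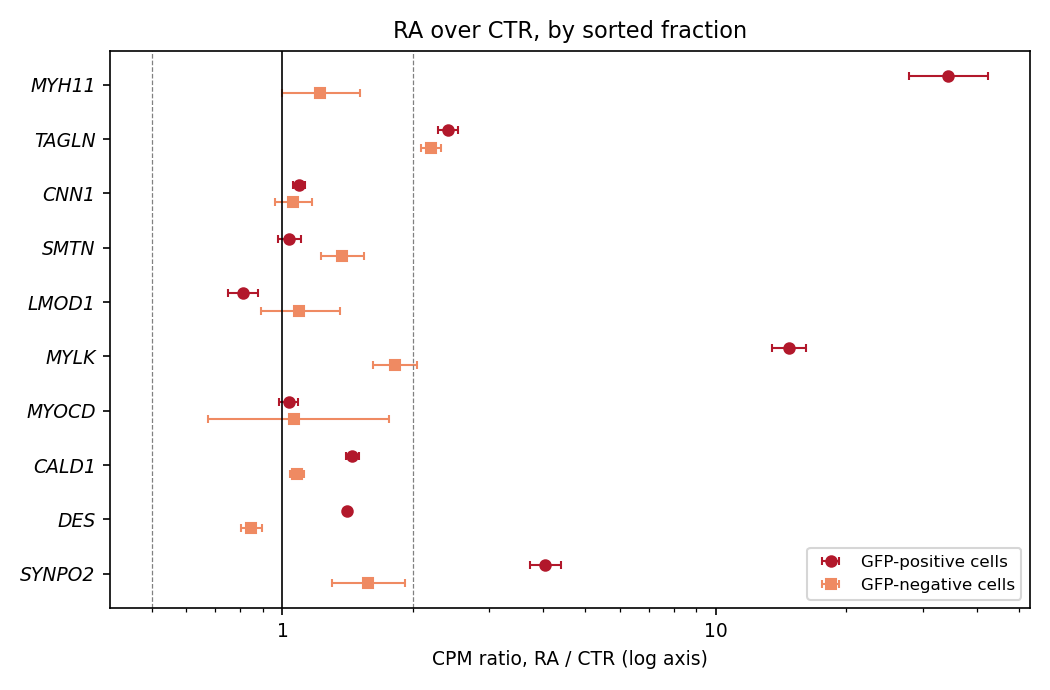
Ratio of RA to CTR in CPM (horizontal log axis) for each of the 10 genes in GFP-positive cells (circles) and GFP-negative cells (squares), with Clopper-Pearson 95% intervals, a solid line at 1 and dashed lines at 2-fold in either direction. MYH11 (34.3) and MYLK (14.7) stand apart in GFP-positive cells, whereas TAGLN is the only gene past 2-fold in GFP-negative cells.

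In GFP-negative cells, TAGLN was the only one of the 10 genes called higher with RA and none was called lower. Over the 18642 genes tested in that fraction, 8.69% were called higher and 7.61% lower. The median difference of the 10 genes was 0.20, compared with 0.04 over all genes tested, and the range was -0.24 to 1.14. That median was 0.07 with scaling by library size, where the median of all genes was -0.08. The GFP-positive and GFP-negative comparisons use separate libraries, but they share the cultures from which both fractions were sorted.

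GFP-positive and GFP-negative cells were next compared within each treatment, to ask in which fraction each gene was expressed. In the CTR culture 4 of the 10 genes were called higher in GFP-positive cells (MYOCD, DES, CNN1 and LMOD1) and 4 lower (MYH11, TAGLN, CALD1 and MYLK). Of the 18786 genes tested, 14.1% were called higher and 17.0% lower. In the RA culture 6 were called higher (MYOCD, DES, MYH11, SYNPO2, CNN1 and MYLK) and 2 lower (TAGLN and CALD1), where 10.2% of 18111 genes were called higher and 14.1% lower. The median difference of the 10 genes was 0.03 in CTR and 1.25 with RA, compared with 0.03 and 0.01 over all genes tested. These comparisons reuse the libraries of the RA comparisons and are not separate evidence.

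MYOCD had the largest gap between the fractions. It was 24.2-fold higher in GFP-positive cells of the CTR culture (15.9 to 38.6) and 23.4-fold higher with RA (19.6 to 28.2). DES was 3.44-fold higher in GFP-positive cells of the CTR culture (3.27 to 3.62) and 5.71-fold higher with RA (5.57 to 5.86). CNN1 was 2.55-fold higher (2.32 to 2.81) and 2.63-fold higher (2.51 to 2.75), respectively, so that its gap differed by less than the counting error. LMOD1 was 2.23-fold higher in CTR (1.83 to 2.73) and 1.65-fold higher with RA (1.498 to 1.823). These 4 genes lay on the GFP-positive side under both treatments.

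TAGLN and CALD1 lay on the GFP-negative side under both treatments. TAGLN was 4.76-fold higher in GFP-negative cells of the CTR culture (4.45 to 5.09) and 4.35-fold higher with RA (4.21 to 4.49). CALD1 was 3.63-fold higher in GFP-negative cells of CTR (3.48 to 3.78) and 2.70-fold higher with RA (2.63 to 2.77). SMTN showed no gap in CTR, with a ratio of 0.999 (0.893 to 1.12), and a small one with RA, where GFP-negative cells were 1.327-fold higher (1.25 to 1.41).

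MYH11 and MYLK changed sides. In the CTR culture MYH11 was 6.93-fold higher in GFP-negative cells (5.22 to 9.21), and in the RA culture it was 4.04-fold higher in GFP-positive cells (3.73 to 4.39). MYLK was 3.73-fold higher in GFP-negative cells of CTR (3.24 to 4.30) and 2.17-fold higher in GFP-positive cells with RA (2.08 to 2.26). Of the 17108 genes tested under both treatments, 27 (0.158%) were called lower in GFP-positive cells of CTR and higher in GFP-positive cells with RA, and MYH11 and MYLK were among them. The opposite switch, which none of the 10 genes made, was found for 31 genes (0.181%). SYNPO2 was level between the fractions in CTR, with a ratio of 1.04 (0.856 to 1.27), and 2.67-fold higher in GFP-positive cells with RA (2.49 to 2.87). The change of a gap between treatments has no test here.

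**Figure D3:**
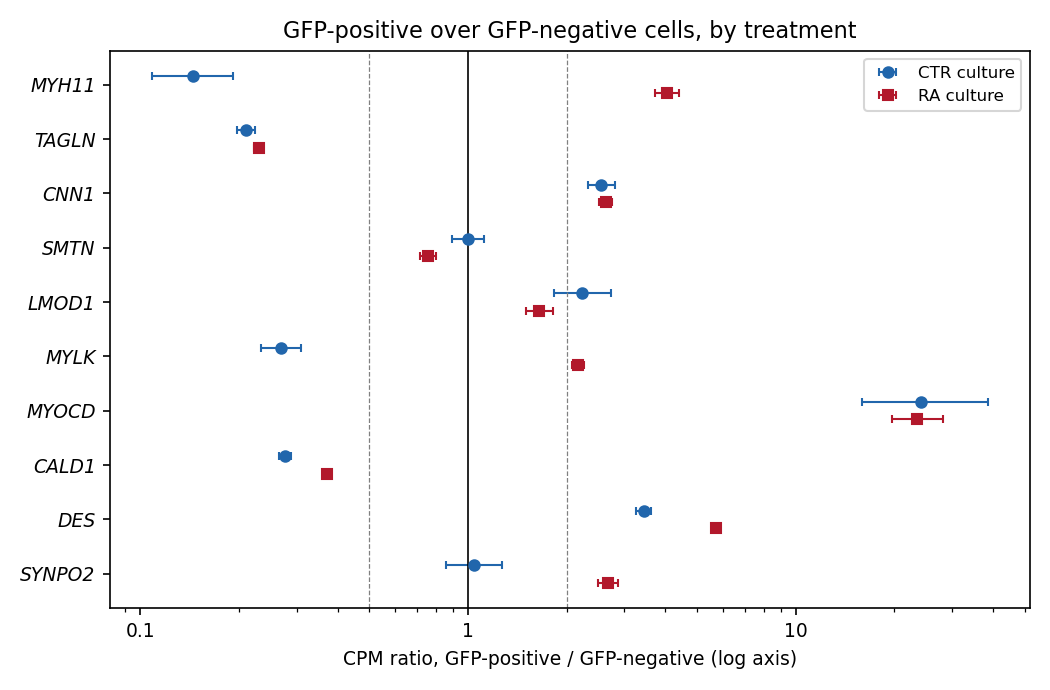
Ratio of GFP-positive to GFP-negative cells in CPM (horizontal log axis) for each of the 10 genes in the CTR culture (circles) and the RA culture (squares), with Clopper-Pearson 95% intervals, a solid line at 1 and dashed lines at 2-fold in either direction. MYH11 and MYLK move from the left of 1 in CTR to the right of 1 with RA, whereas MYOCD, DES, CNN1 and LMOD1 stay on the right and TAGLN and CALD1 on the left.

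Levels of different genes were compared per length, as RPKM, which is the CPM divided by the annotated exon length in kilobases. On this scale DES made up 75.6% of the summed level of the 10 genes in RA and 74.4% in CTR GFP-positive cells, with 638 and 453 RPKM. CNN1 came next, with 96.4 and 88.4 RPKM, followed by CALD1 with 30.99 and 21.4 RPKM. MYH11 was the lowest of the 10 in CTR GFP-positive cells, at 0.189 RPKM, and it had 6.47 RPKM with RA, where only SYNPO2 was lower with 5.41 RPKM. With the length of the longest transcript MYH11 was again the lowest in CTR GFP-positive cells, at 0.483 RPKM, but had 16.5 RPKM with RA and ranked 6 of the 10. In GFP-negative cells the sum was spread more evenly: TAGLN, DES and CALD1 had 114, 112 and 83.8 RPKM with RA, and DES, CALD1 and TAGLN had 132, 77.5 and 51.5 RPKM in CTR. The order depended on the length: with the longest transcript CALD1 was above DES in both GFP-negative libraries, at 164 and 124 RPKM with RA and 151 and 146 RPKM in CTR.

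Each gene was then set beside its closest relatives on the same per-length scale. MYH11 made up 16.8% of the summed level of the non-sarcomeric myosin heavy chains in RA GFP-positive cells, compared with 0.762% in CTR GFP-positive cells and 1.51% and 1.42% in RA and CTR GFP-negative cells. MYH9, the non-muscle myosin IIA, led that family in all 4 libraries, with 53.7% to 67.4%. MYH11 was thus a minor myosin of this kind even where it was highest.

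The leading myosin light chain kinase gene differed between the GFP-positive libraries. MYLK made up 78.1% of its family in RA GFP-positive cells and 15.4% in CTR GFP-positive cells, where MYLK3, the kinase of heart muscle, made up 81.0%. MYLK3 itself had 24.5 CPM in RA and 32.7 CPM in CTR GFP-positive cells, a log2 difference of -0.40, so the shift in share came mostly with MYLK. In GFP-negative cells MYLK led under both treatments, with 81.8% in RA and 65.1% in CTR. With the length of the longest transcript in place of all exon bases, MYLK made up 89.4% in RA and 30.1% in CTR GFP-positive cells, and the same gene led in each library.

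SYNPO2 made up 14.7% of the synaptopodin family in RA GFP-positive cells and 6.02% in CTR GFP-positive cells. SYNPO2L, the relative found in heart and skeletal muscle, led in CTR GFP-positive cells with 68.1%. SYNPO, known from kidney podocytes and brain, led with 46.7% in RA GFP-positive cells and with 92.3% and 87.6% in RA and CTR GFP-negative cells. SYNPO itself was called higher with RA in GFP-positive cells, with 176 CPM compared with 59.0 CPM (difference 1.56), whereas SYNPO2L had 72.9 and 77.2 CPM. TAGLN2, the transgelin of many non-muscle cells, was also called higher in GFP-positive cells, with 86.8 CPM with RA and 25.8 CPM in CTR (difference 1.71). By exon length TAGLN made up 37.7% to 47.4% of its family, below TAGLN2 in all 4 libraries. TAGLN2 had 59.0% in RA and 49.8% in CTR GFP-positive cells, and 52.2% and 60.3% in the respective GFP-negative cells. Which of them led in CTR GFP-positive and RA GFP-negative cells depended on the length used.

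The shares of DES, MYOCD and CNN1 in their families followed the sorted fraction. DES made up 82.8% and 82.4% of the intermediate filament genes listed in RA and CTR GFP-positive cells, compared with 27.1% and 33.7% in the respective GFP-negative cells, where VIM, the filament of mesenchymal cells, led with 65.6% and 57.2%. MYOCD made up 56.6% and 49.3% of the summed myocardin family in RA and CTR GFP-positive cells and 5.16% and 4.95% in GFP-negative cells, where MRTFA led. With the longest transcript MRTFA also led in CTR GFP-positive cells. CNN1 made up 52.6% and 58.8% of the calponins in RA and CTR GFP-positive cells and 19.9% and 18.8% in GFP-negative cells, where CNN3, a calponin of non-muscle cells, led.

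LMOD1 made up 15.8% and 16.4% of the leiomodins and tropomodulins in RA and CTR GFP-positive cells, where TMOD1, which caps actin filaments in striated muscle, made up 63.2% and 63.1%. In GFP-negative cells LMOD1 was the leading member under both treatments by exon length, with 45.0% and 33.4%, although TMOD1 was close in CTR with 32.4% and ahead of it with the longest transcript. LMOD2, the leiomodin of heart muscle, had 811 and 1013 reads in GFP-positive cells and 5 and 3 reads in GFP-negative cells, and TMOD4 had 0 reads in all 4 libraries. SMTN made up 8.69% to 17.7% of its family, in which SMTNL2 led in all 4 libraries with 81.4% to 90.7%. With the longest transcript SMTN made up 15.0% to 28.59%, and SMTNL2 still led in each library.

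**Figure D4:**
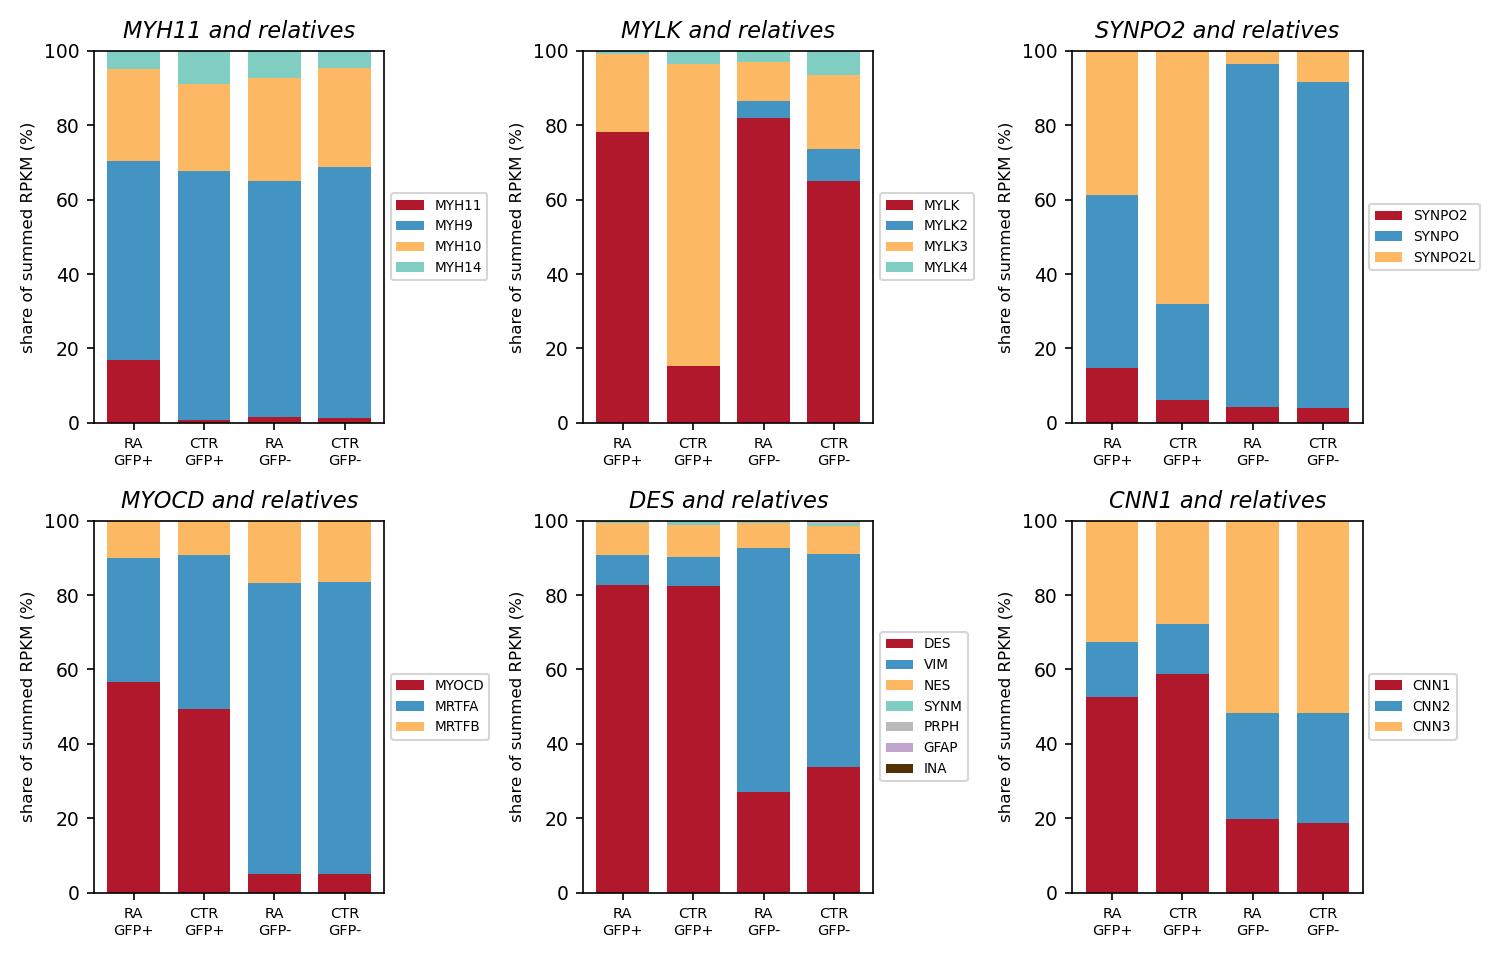
Share of the summed RPKM of each gene family (vertical axes, percent) that each relative takes in the 4 libraries, with 1 library per stacked bar, no error bars and the member of the smooth muscle set in dark red at the bottom. In GFP-positive cells MYLK took 78.1% with RA and 15.4% in CTR, and MYLK3 the greater part of the rest, whereas the shares of DES, MYOCD and CNN1 followed the sorted fraction.

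A further 30 genes of the contractile apparatus and its regulation were listed beside the 10. In GFP-positive cells 4 of the 30 were called higher with RA and none lower, with a median difference of 0.06. Over all genes tested there, 5.09% were called higher and 2.12% lower. ACTG2 had 10.3 CPM with RA and 0.454 CPM in CTR, on 275 and 13 reads, a difference of 2.96. ACTA2, the alpha actin of vascular smooth muscle, had 498 and 151 CPM, a difference of 1.71. ITGA8, an integrin of smooth muscle and mesenchyme, had 8.34 and 3.00 CPM (difference 1.22), and TPM4, a tropomyosin of non-muscle filaments, had 326 and 143 CPM (difference 1.18).

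Several abundant components were level in GFP-positive cells. TPM1 had a difference of 0.00, MYL9, the regulatory light chain that MYLK phosphorylates, of 0.03, and MYL6, the essential light chain, of 0.23. In GFP-negative cells 3 of the 30 were called higher and 3 lower, with a median of 0.30, where 8.69% of all genes tested were called higher and 7.61% lower. ACTG2 had 51.0 CPM with RA and 8.09 CPM in CTR (difference 2.52), and HSPB6, a small heat shock protein of smooth muscle, and KCNMB1, a subunit of the calcium-activated potassium channel, differed by 1.45 and 1.07. The genes called lower were KCNMA1, the pore of that channel, with -1.57, PPP1R12B, a subunit of myosin phosphatase in heart and muscle, with -1.40, and PGM5, just past the threshold. Between the fractions 5 of the 30 were called higher and 5 lower in GFP-positive cells of CTR, and 4 higher and 8 lower with RA. Over all genes tested, 14.1% were called higher and 17.0% lower in CTR, and 10.2% and 14.1% with RA. ACTG2 was lower in GFP-positive cells under both treatments, with differences of -2.64 in CTR and -2.20 with RA. It thus did not change sides as MYH11 and MYLK did.

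Of 18 factors that act upstream of these genes, 7 were called higher with RA in GFP-positive cells and 3 lower, with a median of 0.32. FOXF1, a transcription factor of gut and lung mesenchyme, had 206 reads with RA and 6 in CTR (difference 2.85). The Notch ligand JAG1 had 535 and 91.1 CPM (difference 2.54), the Notch target HEYL 13.8 and 1.85 CPM (2.38), and PDGFRB, the growth factor receptor of mural cells, 124 and 23.3 CPM (2.36). KLF4, a repressor of contractile genes, PRRX1 and the receptor NOTCH3 were also called higher, by 2.19, 1.32 and 1.27. The genes called lower were FHL2, TBX18 and the receptor TGFBR2, with -1.42, -1.33 and -1.21. SRF itself was level, with 176 and 163 CPM (difference 0.11), as was MRTFB (-0.03), and MRTFA had a difference of -0.46.

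In GFP-negative cells 5 of the 18 were called higher with RA (FOXF1 2.53, HEYL 2.06, JAG1 1.71, PRRX1 1.15 and KLF4 1.08). TBX18 was called lower (-1.05), and the median was 0.58. Over all genes tested in that fraction, 8.69% were called higher and 7.61% lower. FOXF1 rested there on 186 reads with RA and 2 in CTR, a ratio of 17.0 with a wide interval (4.65 to 142). Thus JAG1, HEYL, FOXF1, PRRX1 and KLF4 were called higher with RA in both fractions, whereas MYH11 and MYLK were called higher in GFP-positive cells only. Whether the RA difference of MYH11 or MYLK differs between the fractions was not tested. Between the fractions, 1 of 17 of these factors tested was called higher and 6 lower in GFP-positive cells of CTR. With RA, 1 of 18 was called higher and 7 lower. Over all genes tested, 14.1% were called higher and 17.0% lower in CTR, and 10.2% and 14.1% with RA. FHL2, a cofactor of SRF in heart, was the one called higher, by 4.81 in CTR and 3.00 with RA.

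**Figure D5:**
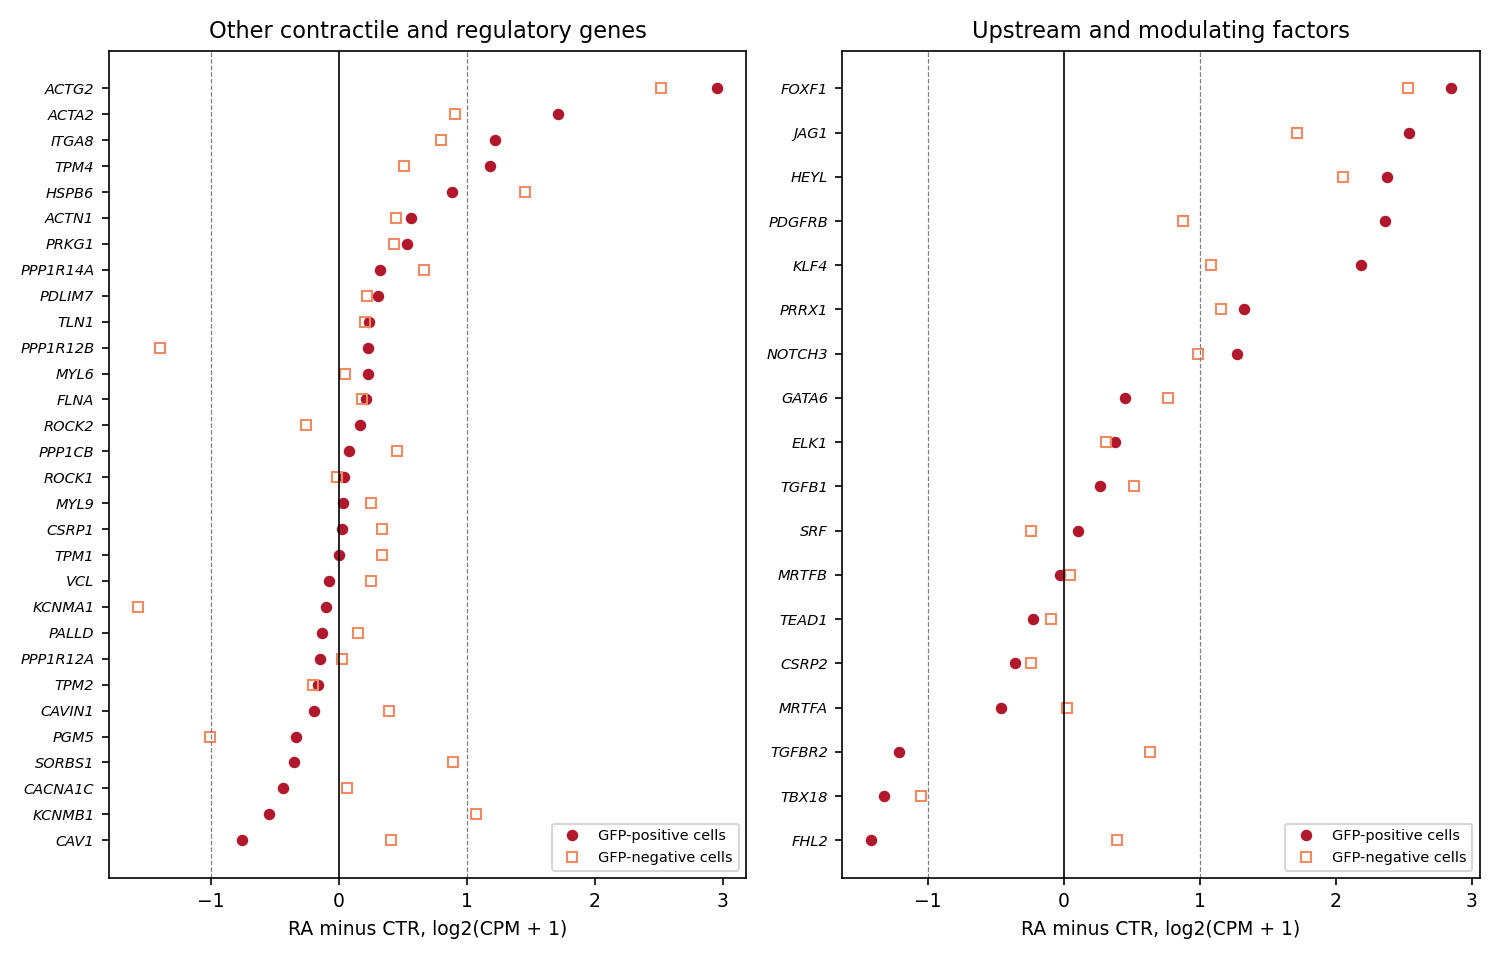
Difference between RA and CTR in log2(CPM + 1) (horizontal axis) for 30 further contractile and regulatory genes (left) and 18 upstream or modulating factors (right). Filled circles are GFP-positive cells and open squares GFP-negative cells. Genes are ordered by the GFP-positive value, with 1 library per condition and dashed lines at 2-fold. ACTG2, JAG1, HEYL and FOXF1 lie to the right of 2-fold in both fractions, and most of the 30 contractile genes lie between the dashed lines.

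Across the 4 libraries, the genes whose profile was nearest to that of MYH11 were taken from 12259 genes with at least 10 CPM in any library, by Euclidean distance between centred log2(CPM + 1) values. The nearest were NR2F2 (distance 0.75), which encodes the nuclear receptor COUP-TFII, MYLK (0.78) and the signalling ligand BMP4 (0.92). NR2F2 had 534, 27.0, 214 and 91.4 CPM in RA GFP-positive, CTR GFP-positive, RA GFP-negative and CTR GFP-negative cells. A likeness over 4 points is a description of these libraries, which the profiles share.

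Markers of other cell types were counted in the same libraries. Their counts, here and in the lists further below, stand beside these shares of all genes tested. With RA, 5.09% were called higher and 2.12% lower in GFP-positive cells, and 8.69% and 7.61% in GFP-negative cells. In the GFP-positive fraction, 14.1% were called higher and 17.0% lower in CTR, and 10.2% and 14.1% with RA. All 12 cardiomyocyte markers were called higher in the GFP-positive fraction under both treatments, and their summed level was 18720 CPM in RA and 22822 CPM in CTR GFP-positive cells, compared with 540 and 1059 CPM in GFP-negative cells. Within GFP-positive cells none was called higher with RA and 1, MYH7, was called lower (-1.67), with a median of -0.39. In GFP-negative cells 6 of the 12 were called lower with RA, with a median of -1.15, beside DES, which had a difference of -0.24 there. The DES, MYOCD, CNN1 and LMOD1 gap between the fractions thus stood beside a gap of the cardiomyocyte markers, whose part in it was not tested.

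Of 10 fibroblast markers, 9 were called higher with RA in GFP-positive cells and none lower, with a median of 1.87. LUM, DCN and COL1A2 had the largest differences, 2.24, 2.17 and 2.14. In GFP-negative cells, where TAGLN was also called higher, 5 of the 10 were called higher and none lower, with a median of 1.05. The summed level of the 10 was 15260 CPM in RA and 4015 CPM in CTR GFP-positive cells, and 61788 and 32231 CPM in the respective GFP-negative cells. The sum is mostly collagen RNA, and single markers could differ from its order. PDGFRA had 295 CPM in RA and 132 CPM in CTR GFP-positive cells, and 138.5 and 87.3 CPM in the respective GFP-negative cells. PDGFRA, like MYH11, MYLK and SYNPO2, was thus highest in RA GFP-positive cells, but every other marker of the list was highest in a GFP-negative library. In GFP-positive cells of CTR, 0 of the 10 were called higher than in GFP-negative cells and 8 lower. With RA, 1 was called higher, PDGFRA, and 8 lower. POSTN had 208 and 82.6 CPM in RA and CTR GFP-positive cells and 537 and 187 CPM in the respective GFP-negative cells. TAGLN and CALD1 followed the order of the fibroblast sum over the 4 libraries. The summed levels of the pericyte and mural, endothelial and epithelial markers had the same order, so that it is not particular to fibroblast markers.

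Of 9 pericyte and mural markers tested, 2 were called higher with RA in GFP-positive cells (PDGFRB and NOTCH3) and 1 lower (ABCC9, -1.12), with a median of 0.19. RGS5, a marker of pericytes, had 121 CPM with RA and 74.3 CPM in CTR, a difference of 0.70. In GFP-negative cells 3 were called higher and none lower, with a median of 0.88. These were COX4I2 (1.63, on 54 and 0 reads), ANPEP (1.11) and CSPG4 (1.11). PDGFRB and NOTCH3 stayed under 2-fold there, with 0.88 and 0.99. The summed level of the 10 genes of that list was 622 and 360 CPM in RA and CTR GFP-positive cells and 1846 and 1028 CPM in GFP-negative cells, and HIGD1B had 0 reads in 3 of the 4 libraries. The part of fibroblast or mural RNA in the RA differences of MYH11, MYLK, SYNPO2 and TAGLN was not tested.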

How the data were processed

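RNA of 4 sorted populations was sequenced by the authors as paired ends from strand-specific libraries. Per the labels and the study's methods, the authors quality-trimmed reads (SICKLE), mapped them to a custom hg19 genome (GSNAP), sorted the alignments (SAMtools 0.1.18), kept unique alignments and deposited raw counts per Ensembl gene (HTSeq 0.6.1p1, intersection-nonempty, strand not used). The Ensembl release is not given in the sources used here. Genes on opposite strands that share exon bases are therefore uncertain.

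Here CPM were computed from the deposited counts, with library sizes adjusted by TMM over all 4 libraries (edgeR 4.0.16, R 4.3.3), the normalization named in the study's methods. Identifiers were matched to names in the reference table for 55538 of 60234 genes (92.2%), and coordinates and exon lengths are those of GENCODE lifted to GRCh37. A gene was tested where a library of the pair reached 1 CPM, and called at a difference of at least 1 in log2(CPM + 1). No test between conditions was made, with 1 library per condition. RPKM is CPM per kilobase of annotated exon. The 10 genes and all lists were chosen with earlier results of these data known. By the rule for named genes, all 10 genes, their relatives, the 5 genes most like MYH11 (of which 3 are reported here), NKX2-5 and up to 4 genes per list with the largest difference past 2-fold are named; other genes of a list were named after their values were seen. Alternatives were 5 other scalings (DESeq2 1.42.0 among them), pseudocounts of 0.25 and 5 CPM, thinning to the smallest library, minimums of 4 reads or 10 CPM, thresholds of 1.5-fold and 3-fold, promoter windows of 200 bases and the longest transcript as length. The calculation was tested on simulated data. Promoter sequences are from RefSeq. Python 3.11.15 and matplotlib 3.10.9 were used for other steps and figures.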

Additional observations from a re-analysis of the deposited data

Results flagged for a closer look

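DES had differences of opposite sign between RA and CTR in the sorted fractions, 0.49 in log2(CPM + 1) for GFP-positive and -0.24 for GFP-negative cells, and both ratio intervals left out 1. MYH11 had differences of opposite sign between GFP-positive and GFP-negative cells in the cultures, -2.48 in CTR and 1.98 with RA. MYLK did likewise, with -1.84 in CTR and 1.11 with RA. Each side rests on 1 library per condition, and the difference between the groups was not tested for any of the 3 genes.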

How the results depend on the processing

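No paired analysis was possible because the results come from no test and each condition has 1 library, and for the same reason no library could be left out. The 4 genes called higher with RA in GFP-positive cells stayed past 2-fold under every scaling, pseudocount, filter and depth, with ranges of 3.84 to 4.998 for MYH11, 3.56 to 3.86 for MYLK, 1.83 to 2.03 for SYNPO2 and 1.19 to 1.27 for TAGLN. The median difference of the 10 genes in that comparison was 0.51, and it was 0.44 with scaling by library size, 0.47 with the upper quartile, 0.47 without mitochondrial and the 10 most abundant genes, and 0.55 after thinning to the smallest library. In GFP-negative cells the median was 0.20, and it was 0.07 with scaling by library size and without mitochondrial and abundant genes, 0.12 with the upper quartile and 0.28 with a minimum of 10 CPM. The median between the fractions in CTR, 0.03, lay between -0.07 and 0.07 over the alternatives. At 3-fold, 3 of these 4 genes were still called in GFP-positive cells, all but TAGLN, as were 1.94% of all genes. In GFP-negative cells 3 genes were called higher with RA at 1.5-fold (17.2% of all genes) and 0 at 3-fold (2.92%). At 3-fold, 2 genes were called higher and 4 lower in GFP-positive than GFP-negative cells of CTR (5.55% and 8.55% of all genes), and 3 higher and 1 lower with RA (3.93% and 6.99%). No called difference changed sign. Differences near 0 did: MYOCD and SMTN between RA and CTR in GFP-positive cells, CALD1, CNN1, LMOD1 and MYOCD in GFP-negative cells, and SMTN and SYNPO2 between the fractions in CTR. In GFP-negative cells, scaling by library size and scaling without mitochondrial and abundant genes moved the median of all genes by -0.13 and -0.14. Relative to that median, TAGLN lay between 1.09 and 1.10 under all scalings, and the sign of no member's difference changed in any of the 4 comparisons. The CTR GFP-negative library, with 4371101 reads, limits the low genes, MYOCD above all with 22 reads.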

Other observations

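Markers of skeletal muscle, gut mesenchyme, endothelium and epithelium were listed for the other cells the cultures could hold. Of the skeletal muscle markers, 5 of 10 were tested in GFP-positive cells, where ACTA1, the skeletal alpha actin, was called higher with RA (difference 3.38, on 6280 and 621 reads) and TNNT3 and CKM lower (-1.44 and -1.09). The muscle-determining factor MYF5 had 0 reads in 3 of the 4 libraries, and MYOD1 had 9 reads in RA and 0 in CTR GFP-positive cells. MYOG, a further factor of this kind, was present in GFP-positive cells, with 11.5 CPM in RA and 5.30 CPM in CTR. These rested on 307 and 152 reads, and the difference of 0.985 lay just under the threshold. In GFP-negative cells TNNT3 was called higher (1.09) and MYOG lower (-1.44), the latter on only 8 reads in RA and 12 in CTR. Of the gut mesenchyme genes, 6 were tested in GFP-positive cells, of which 3 were called higher with RA (ACTG2, FOXF1 and NKX3-2) and 1 lower (HAND1, -2.01). In GFP-negative cells 5 of 8 were called higher with RA (FOXF1, ACTG2, HLX, NKX3-2 and BARX1) and 1 lower (NKX2-3, -1.18). NKX2-3 rested there on only 17 reads in RA and 13 in the shallower CTR library. The summed level of that list was 31.6 CPM in RA and 22.5 CPM in CTR GFP-positive cells, and 101 and 30.2 CPM in the respective GFP-negative cells, and BARX1 and NKX3-2 had 0 reads in CTR GFP-negative cells.

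Of the endothelial markers, 5 were tested in GFP-positive cells and 1, TEK, was called higher with RA (1.25), on 50 and 6 reads. In GFP-negative cells ERG and TIE1 were called higher (1.15 and 1.14) out of 8. The summed endothelial level was 109 and 88.3 CPM in RA and CTR GFP-positive cells and 448 and 388 CPM in the GFP-negative cells, and VWF and ESAM had 0 reads in CTR GFP-positive cells. Of 8 epithelial markers, CLDN4 and EPCAM were called higher with RA in GFP-positive cells (1.12 and 1.06), and CLDN4, EPCAM and CLDN7 in GFP-negative cells (3.59, 2.75 and 2.57). None of either list was called lower with RA in either fraction.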
